A study of Homo sapiens with 3 samples.

Results

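CD44 and the 9 genes named here as its neighbours (EHF, ELF5, APIP, PDHX, SLC1A2, PAMR1, FJX1, TRIM44 and LDLRAD3) lie in and around band 11p13 of human chromosome 11. They were chosen by symbol from a table of promoter signal because CD44 was high in both of its value columns, and each of the 10 has 1 window among 60123 windows of 57997 symbols. The levels of CD44 are therefore given as a description, and the question asked of them is whether they were local to its promoter or shared by the promoters around it. The members were matched by symbol within chromosome 11 at 34 to 37 Mb, where the table holds 51 windows in all.

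The values come from chromatin immunoprecipitation followed by sequencing in SW1990, an established line of human pancreatic ductal cancer, in cells labelled SP. Fixation combined EGS, a longer cross-linker, at 1.5 mM with formaldehyde at 0.4%, and chromatin was precipitated in 1 library with an antibody against PAF1 and in 1 library with an antibody against PHF5A. A library titled input was not analysed here. Each value is the mean signal of an hg38 window, which for 60119 of the 60123, all members included, starts 2000 bp before a start site and ends 500 bp after it. Each antibody has 1 library, so nothing here has a replicate check. The error given after ± is a counting standard error, scaled by the spread between the PAF1 and PHF5A libraries over non-overlapping windows.

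CD44 is a surface glycoprotein that binds hyaluronan in the extracellular matrix and links it to the actin cytoskeleton. It is widely used as a surface marker of stem-like cells in pancreatic cancer. PAF1 belongs to a complex that travels with RNA polymerase II during transcription elongation, and PHF5A is a small subunit of the SF3b splicing complex.

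The CD44 window (ENSG00000026508, plus strand, chr11:35136870-35139370) gave a PAF1 signal of 11.6 ± 1.67 and a PHF5A signal of 11.2 ± 1.64. These values stood at percentiles 97.8 and 97.5 of all windows. On the scale of signal plus a pseudocount of 0.5, which is used for every fold here, CD44 had 2.63 and 2.43 times the level of the median promoter, whose signal was 4.11 with PAF1 and 4.30 with PHF5A. Without an input value per window, enrichment by an antibody and signal that any library would show there cannot be told apart.

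The file places the CD44 start site 301 bp upstream of the one RefSeq gives, and both lie in the window. The same window holds the start of a second transcript that runs the other way. The files call it RP4-607I7.1, and RefSeq annotates the long noncoding RNA CD44-DT with the same upstream boundary at base 35138032. The start sites of CD44 and RP4-607I7.1 are 838 bp apart in the file. The RefSeq promoter stretches of both (GRCh38.p14, 250 bases before and 50 after the start site) are shown with that of FJX1, the member with the lowest mean signal over the libraries, because these 3 differ in base composition. Capitals mark matches, on either strand, to 5 motifs, which were TATAAA of the TATA box, CCAAT of the CCAAT box, GGGCGG of the GC box, CCGGAA of many ETS sites and TGANTCA of AP-1 sites. CD44 is read from chr11:35138921-35139220 on the plus strand, CD44-DT from chr11:35137983-35138282 on the minus strand and FJX1 from chr11:35618210-35618509 on the plus strand.
CD44: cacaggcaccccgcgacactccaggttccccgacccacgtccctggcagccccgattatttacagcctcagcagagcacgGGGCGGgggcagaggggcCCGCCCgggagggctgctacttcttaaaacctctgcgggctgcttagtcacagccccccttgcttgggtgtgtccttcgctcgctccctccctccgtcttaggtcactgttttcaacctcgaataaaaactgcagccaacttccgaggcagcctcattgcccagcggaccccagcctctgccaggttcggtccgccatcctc
CD44-DT: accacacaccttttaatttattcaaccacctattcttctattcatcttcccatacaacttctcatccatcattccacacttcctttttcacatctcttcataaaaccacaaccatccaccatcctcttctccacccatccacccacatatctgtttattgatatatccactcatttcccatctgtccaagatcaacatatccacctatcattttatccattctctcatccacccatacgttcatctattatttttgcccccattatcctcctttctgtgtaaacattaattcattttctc
FJX1: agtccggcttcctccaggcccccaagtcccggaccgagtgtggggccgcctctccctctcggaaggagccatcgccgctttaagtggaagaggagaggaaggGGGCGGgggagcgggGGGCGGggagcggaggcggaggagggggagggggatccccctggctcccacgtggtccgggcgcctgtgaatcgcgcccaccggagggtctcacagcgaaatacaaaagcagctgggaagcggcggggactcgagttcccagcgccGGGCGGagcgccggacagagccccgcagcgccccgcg
The CD44 stretch has a GC content of 63.3% with 18 CpG dinucleotides, and the FJX1 stretch 72.3% with 31. The CD44-DT stretch, which lies within the CD44 window, has 37.7% with 1 CpG and held none of the 5 motifs. The GC box was found at 2 positions in the CD44 stretch and at 3 in the FJX1 stretch, and 45.0% of 35116 RefSeq promoters of that length hold it. No match to the other 4 motifs was found in any of these stretches, which says only that those letters are not there.

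The 9 neighbours had lower signals than CD44 in both libraries. With PAF1 their signals ran from 4.33 to 7.5 with a median of 5.55, and with PHF5A from 4.91 to 9.33 with a median of 5.79. All 9 lay above the median promoter in each library, where 49.9% and 49.5% of all windows do. Chromosome 11 as a whole was higher than the genome. Its median window had a PAF1 signal of 4.88 and a PHF5A signal of 5.08, which is 1.17 and 1.16 times the level of the genome. Against these chromosome medians, 6 of the 9 neighbours lay above with PAF1, all but FJX1, TRIM44 and LDLRAD3, and 7 of the 9 with PHF5A, all but FJX1 and APIP. The neighbours' medians were 1.31 times the median promoter with PAF1 and 1.31 times with PHF5A. CD44 had 2.0 times the level of the median neighbour with PAF1 and 1.86 times with PHF5A.

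**Figure D1:**
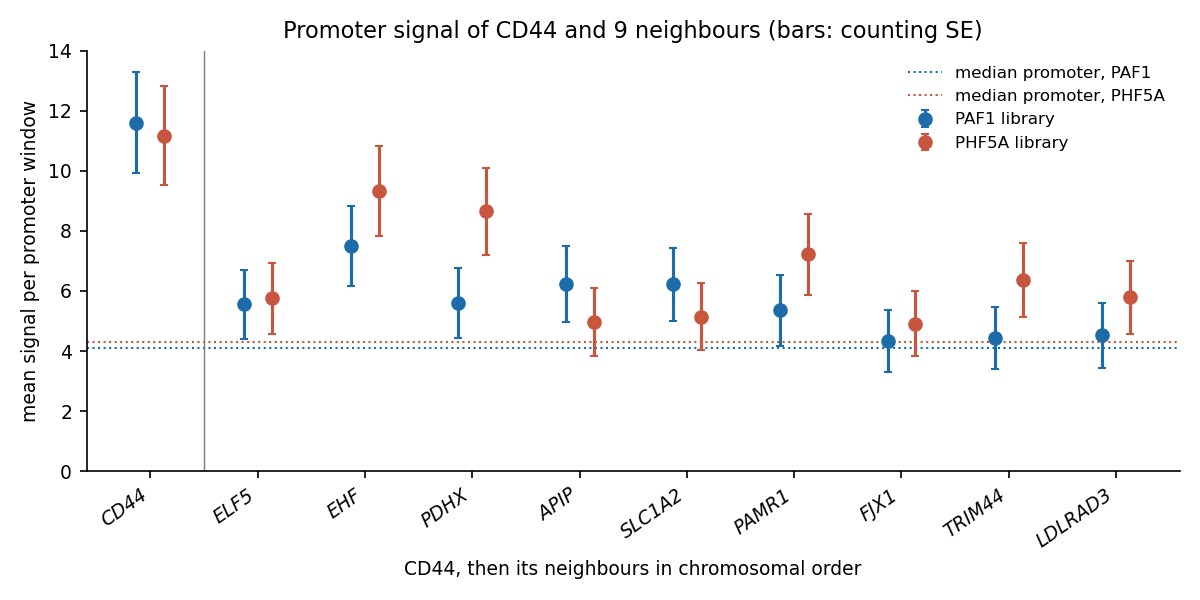
Mean signal per promoter window (vertical axis) of CD44, left of the grey line, and of its 9 neighbours in chromosomal order, in the PAF1 library (blue) and the PHF5A library (red). Bars are counting standard errors, and dotted lines mark the median promoter at 4.11 and 4.30. CD44 is the highest point of each library, and EHF at 9.33 and PDHX at 8.66 come nearest with PHF5A.

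At least 2 times the median promoter was reached by 1 of the 10 genes with PAF1, CD44, against 8.18% of all windows. With PHF5A it was reached by 2 of the 10, CD44 and EHF, against 6.77% of all windows, and CD44 alone reached it in both libraries, against 4.65% of all windows. Since CD44 was chosen for its height, its own place in these counts carries no information. The other 9 contributed none with PAF1 and 1 with PHF5A, and PDHX joined EHF with PHF5A when the median of protein-coding symbols was the reference. At 1.5 times the median promoter the counts were 2 of the 10 with PAF1, against 21.9% of all windows, and 4 of the 10 with PHF5A, against 20.4%.

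The difference between CD44 and each neighbour was then set against the counting error of both windows. Because CD44 was chosen for its height, these differences are descriptions and not tests. With PAF1 they ran from 4.11 ± 2.14 (EHF) to 7.28 (FJX1). With PHF5A they ran from 1.84 ± 2.23 (EHF) to 6.26 (FJX1), and PDHX at 2.51 ± 2.19 and PAMR1 at 3.95 ± 2.13 also lay within 2 counting standard errors of CD44.

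The nearest gene pair on the EHF side of CD44 is PDHX and APIP, which start head to head. PDHX encodes the component of the pyruvate dehydrogenase complex that anchors its E3 enzyme, and its window (chr11:34913829-34916329) had 5.61 ± 1.16 with PAF1 and 8.66 ± 1.45 with PHF5A. APIP, an enzyme of the methionine salvage pathway that is named for its binding to APAF1, had 6.23 ± 1.26 and 4.97 ± 1.13 in its window (chr11:34915999-34918499). Their start sites are 670 bp apart and their windows share 330 bp. PDHX minus APIP was -0.62 ± 1.71 with PAF1 and 3.69 ± 1.84 with PHF5A, so the higher of the pair differed between the libraries, and the PHF5A difference was about 2 counting standard errors.

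EHF and ELF5 encode epithelial transcription factors of the ETS family. EHF (chr11:34619093-34621593) was the highest neighbour in both libraries, at 7.5 ± 1.34 with PAF1 and 9.33 ± 1.50 with PHF5A. ELF5 (chr11:34513305-34515805) had 5.55 ± 1.16 and 5.75 ± 1.18, near the median of the neighbours in each library.

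On the other side of CD44, SLC1A2, the high-affinity glutamate transporter of glia (chr11:35419563-35422063), had 6.22 ± 1.22 with PAF1 and 5.14 ± 1.12 with PHF5A. PAMR1, which encodes a peptidase-domain protein linked to muscle regeneration (chr11:35529800-35532300), had 5.35 ± 1.17 and 7.22 ± 1.36. FJX1, the human homolog of the Drosophila gene four-jointed (chr11:35616419-35618919), had 4.33 ± 1.02 and 4.91 ± 1.09. It was the lowest of the 10 in both libraries and the nearest to the median promoter. TRIM44, a tripartite motif protein (chr11:35660805-35663305), had 4.44 ± 1.03 and 6.37 ± 1.24. LDLRAD3, a membrane protein with a low density lipoprotein receptor class A domain (chr11:35941981-35944481), had 4.52 ± 1.07 and 5.79 ± 1.22. With PAF1 these last 3 genes were the lowest of all.

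Ordered by PAF1 signal, the genes ran CD44, EHF, APIP, SLC1A2, PDHX, ELF5, PAMR1, LDLRAD3, TRIM44 and FJX1. Ordered by PHF5A signal, they ran CD44, EHF, PDHX, PAMR1, TRIM44, LDLRAD3, ELF5, SLC1A2, APIP and FJX1. No step between adjacent genes was larger than 2 counting standard errors in either library. The step from CD44 down to EHF was 1.92 standard errors with PAF1 and 0.826 with PHF5A, and the largest step among the neighbours was 0.690 and 0.725. Across the 10 genes Spearman's rho between the libraries was 0.479, and across the 51 windows at 34 to 37 Mb it was 0.640, against 0.845 across all windows. These are descriptions across windows that are not independent.

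The libraries were compared gene by gene after centring each on its median promoter. For CD44 the log2 difference, PAF1 minus PHF5A, was 0.11 ± 0.28. The largest differences of the neighbours were -0.53 ± 0.36 for PDHX, -0.42 ± 0.40 for TRIM44 and 0.36 ± 0.40 for APIP. The difference was positive for 4 of the 10 genes and negative for 6. None of the 10 differed 2-fold between the libraries, where 4.15% of all windows do, and none by more than 2 counting standard errors, where 4.81% of 58388 windows do. The error was scaled by the spread between these same libraries, which also holds true antibody differences. The absence of larger differences therefore cannot show that the antibodies agree at these genes.

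**Figure D2:**
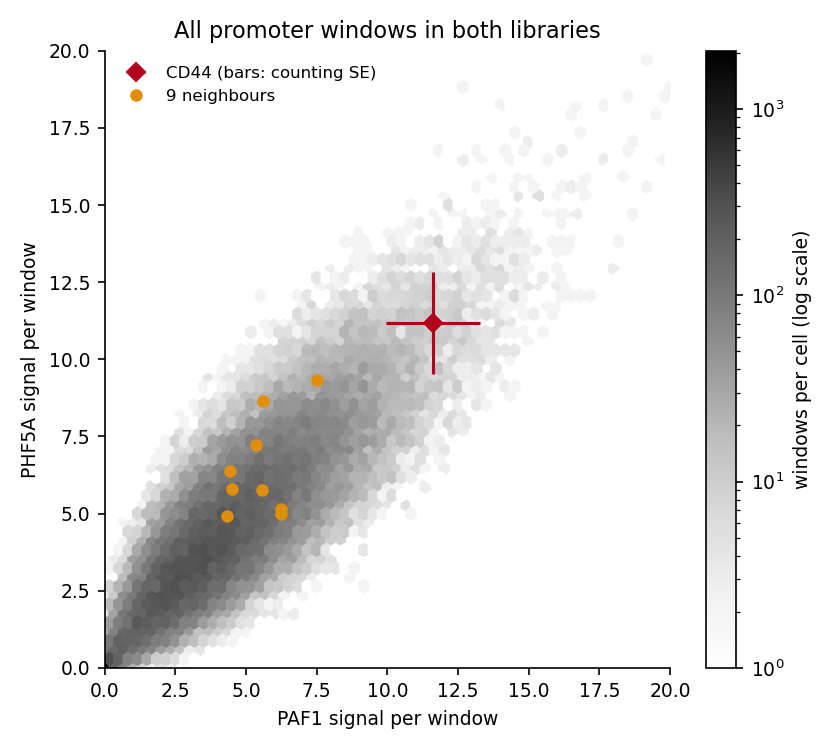
Signal per window in the PAF1 library (horizontal axis) and the PHF5A library (vertical axis) for all promoter windows, shaded by the number of windows on a log scale, with axes ending at 20. CD44 (red diamond, bars are counting standard errors) lies at 11.6 and 11.2, above and to the right of its 9 neighbours (orange). The neighbours run from FJX1, at percentiles 53.0 and 59.2 of all windows, to EHF, at 86.0 and 94.0.

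The region around CD44 was then read without regard to gene names. The regional level, the median of the nearest 50 windows per side that lie at least 10 kb away, was 5.61 with PAF1 and 6.24 with PHF5A at CD44. These 100 windows reach from 2.54 Mb before CD44 to 5.48 Mb after it. The level itself stood at percentiles 83.1 and 89.3 of the regional levels of all windows. CD44 had 1.98 times its regional level with PAF1 and 1.73 times with PHF5A. On the log2 scale its excess over the median promoter was 1.39 with PAF1, made up of 0.41 for the region and 0.99 for CD44 over the region. With PHF5A the excess was 1.28, made up of 0.49 and 0.79. A window picked for a high value will tend to exceed its surroundings, so this split describes CD44 and tests nothing. At least 2 times the regional level was reached by 0 of the 10 genes in either library, against 5.82% of all windows with PAF1 and 4.68% with PHF5A, and CD44 with PAF1 fell just short of it. This count rests on how the region is defined. CD44 passed 2 times with PAF1 under 4 of the alternatives, at 2.0 times with 100 windows per side or with the 9 neighbours as the region, 2.05 times with a pseudocount of 0.1 and 2.39 times with protein-coding windows alone. With PHF5A it passed under the last of these, at 2.11 times.

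The neighbours were set against the regional level in the same way. Relative to the regional level of each, they ran from 0.785 to 1.33 times with PAF1 and from 0.793 to 1.51 times with PHF5A, with medians of 1.01 and 0.941. With PAF1 5 of the 9 lay above it, against 49.3% of all windows, and with PHF5A 3 of the 9 did, against 49.3%. Relative to their own region the 9 neighbours were thus spread around 1. Each level is a median of surrounding windows, so this spread, and its contrast with a gene chosen for its height, tests nothing.

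By distance from the centre of the CD44 window, only RP4-607I7.1 lay within 10 kb. It shares 1838 bp with the CD44 window and had 12.5 ± 1.78 with PAF1 and 10.8 ± 1.67 with PHF5A, so it is largely the same measurement and gives no independent check. The nearest window that does not overlap CD44 was RP1-68D18.2 on the one side, 73.7 kb after it and inside the CD44 gene, and the microRNA gene MIR1343 on the other, at -197 kb. RP1-68D18.2 had 7.77 ± 1.37 and 7.37 ± 1.34, and MIR1343 had 5.52 ± 1.19 and 6.56 ± 1.30. The 7 windows at 10 to 250 kb had medians of 6.0 and 6.56, with highest values of 7.77 and 9.23. The 7 windows at 250 to 500 kb had medians of 5.44 and 5.25, and the 21 windows at 500 to 1000 kb had 5.94 and 6.87. CD44 minus RP1-68D18.2 was 3.84 ± 2.16 with PAF1 and 3.80 ± 2.12 with PHF5A, under 2 counting standard errors in both, and RP1-68D18.2 had 1.35 and 1.17 times its own regional level. The table has no window between the overlap and 73.7 kb on the one side, and none nearer than MIR1343 at -197 kb on the other. How far the high value extends within these gaps was therefore not resolved. At -197 kb, MIR1343 had 0.985 times its own regional level with PAF1 and 1.05 times with PHF5A. RP1-68D18.4, at 77.6 kb and named after its values were seen, had 0.465 and 1.01 times its own.

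**Figure D3:**
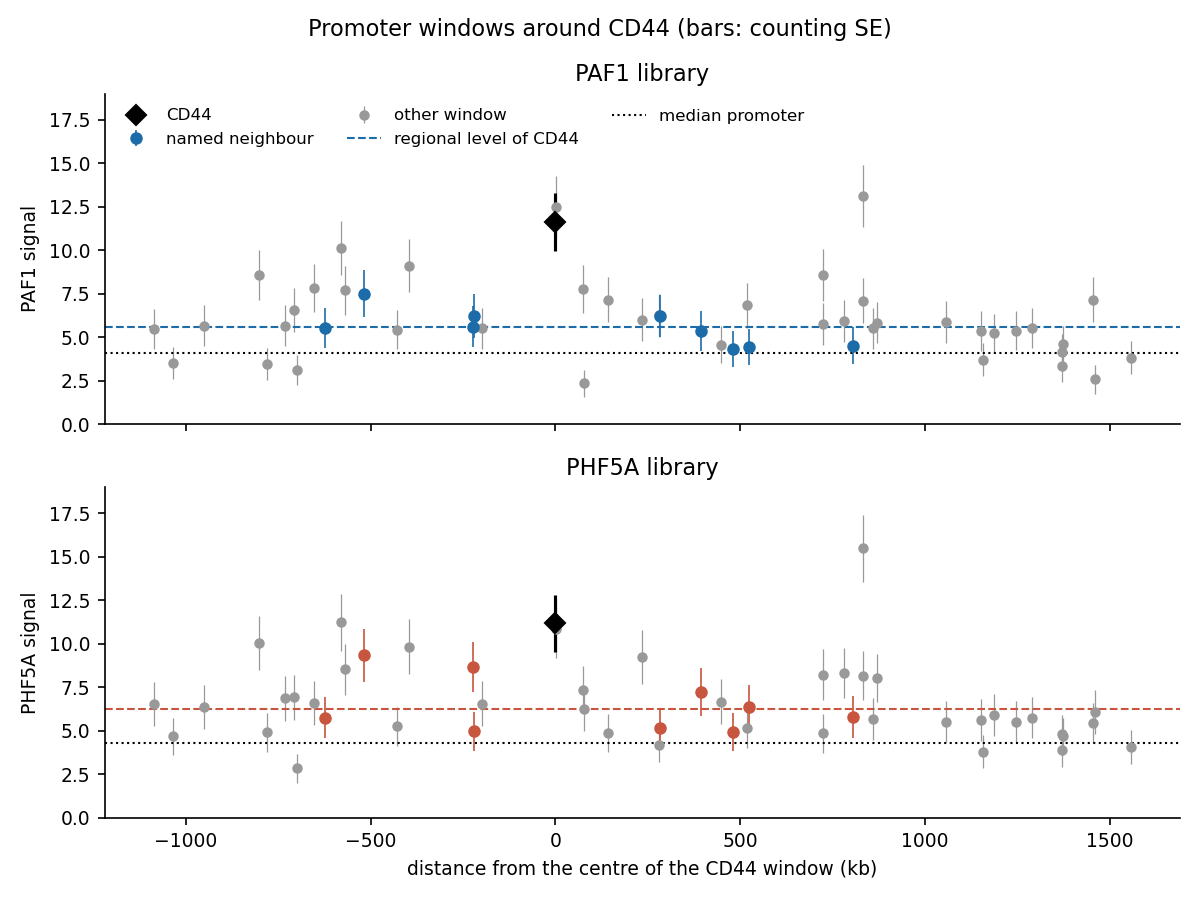
Signal of the 51 windows at 34 to 37 Mb (vertical axes) by distance in kb from the centre of the CD44 window, with PAF1 above and PHF5A below. Black diamonds are CD44, coloured points the 9 neighbours, grey points other windows and bars counting standard errors, and the lines mark the regional level of CD44 (dashed) and the median promoter (dotted). CD44 and the overlapping RP4-607I7.1 stand above the dashed line at 5.61 and 6.24, and a grey window further along, RP5-916O11.2, reaches 13.1 and 15.5.

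CD44 was not the highest window of its region. It ranked 3 of 51 in each library, and highest among the 19 windows whose symbols RefSeq lists as protein-coding. RP5-916O11.2, which lies inside LDLRAD3 (chr11:35970428-35972928), had 13.1 ± 1.78 with PAF1 and 15.5 ± 1.93 with PHF5A. The other windows among the 5 highest by mean signal, besides RP4-607I7.1, were RP4-594L9.2 between ELF5 and EHF, at 10.1 ± 1.56 and 11.2 ± 1.65, and RP4-743O11.1 between EHF and PDHX, at 9.11 ± 1.52 and 9.82 ± 1.59. With PHF5A, RP4-594L9.2 at 11.23 ranked 2 of 51, ahead of CD44 at 11.17, a step smaller than either counting error. The 19 windows with protein-coding symbols had medians of 4.61 and 5.62, and the remaining 32 had 5.97 and 6.58. The 32 include a protein-coding gene that RefSeq lists under another symbol. Of the 49 windows that do not overlap CD44, 3 (6.12%) reached 2 times the median promoter with PAF1, against 8.18% of all windows. With PHF5A 6 (12.2%) did, against 6.77%. Of chromosome 11 windows 12.7% did so with PAF1 and 11.2% with PHF5A. The share of the region was below that of its chromosome with PAF1 and close to it with PHF5A, on counts too small to read as a regional difference.

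CD44 was then placed among the high windows of the whole table. Besides CD44, 848 windows had at least its signal in both libraries, 1.41% of all others, and 89 of them were on chromosome 11. Of the 2798 windows that reached 2 times the median promoter in both libraries, 1045 had at least the excess of CD44 over the regional level in both, 37.3%. The median excess of these 2798 windows was 1.88 times with PAF1 and 1.81 times with PHF5A, so CD44 was near the middle of them, at 1.98 and 1.73. Among all windows CD44 stood at percentiles 94.0 and 91.0 of the excess.

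**Figure D4:**
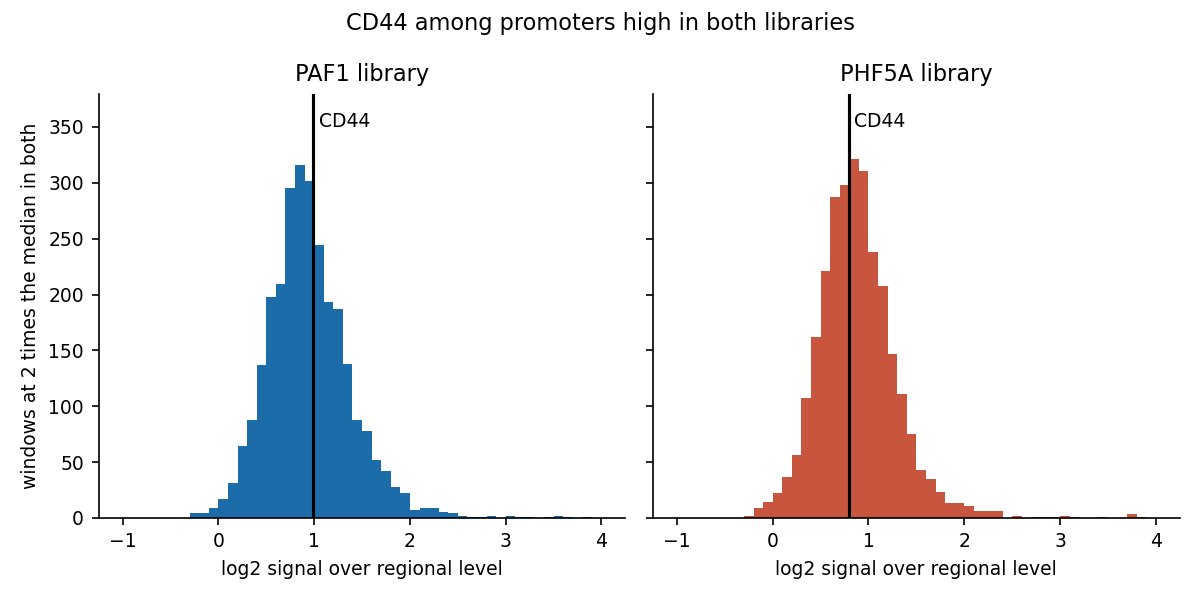
Number of windows (vertical axes) by log2 signal over the regional level (horizontal axes), for windows at 2 times the median promoter or more in both libraries. The black lines mark CD44 at 0.99 in the PAF1 library (left) and 0.79 in the PHF5A library (right), near the centre of each distribution.

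Pairs of windows across the genome show how far signal is shared. Pairs whose centres lay within 1 kb correlated with a rho of 0.938 with PAF1 and 0.941 with PHF5A over 3376 pairs. Such windows overlap over most of their length, so a high rho follows from the bins they have in common. It cannot show that signal is shared between separate windows. Among pairs that do not overlap, rho at 10 to 50 kb was 0.463 with PAF1 and 0.498 with PHF5A. At 50 to 100 kb rho was 0.407 and 0.440, and at 500 to 1000 kb 0.288 and 0.314. Pairs were formed only up to a fixed number of windows apart in order, and within 1 kb only between adjacent windows. The far classes therefore leave out some pairs in gene-dense stretches. All pairs share libraries and base composition, and each window enters many pairs, so the values are descriptions. CD44 and RP4-607I7.1 belong to the first kind of pair, and CD44 and the 9 neighbours to pairs 221 to 805 kb apart.

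Signal also followed base composition. RefSeq promoter stretches with a start site inside the window of the same symbol were at hand for 13038 windows, 21.7% of all, and their GC content correlated with the signal of the window at a rho of -0.329 with PAF1 and -0.320 with PHF5A. In the GC class with the lowest content, of 5 classes of nearly equal size, the median signal was 5.05 and 5.19, and in the highest GC class it was 2.61 and 2.96. Of the 10 genes, 9 have an entry and 6 have it inside the window. CD44, at 63.3%, was in the middle class, whose median signals were 3.55 and 3.8. Among its neighbours APIP had 70.7%, FJX1 72.3% and LDLRAD3 76.7%, while TRIM44 had 61.3% and PAMR1 47.0%. All 6 lay above the median of their own GC class in both libraries, a line that splits the promoters of each class evenly. CD44 was chosen for its height, and the regional level of all 6 was high. That level stood at percentiles 81.8 (APIP) to 84.1 (LDLRAD3) with PAF1 and 88.9 (APIP) to 90.7 (TRIM44) with PHF5A. The 300 bases are a small part of each window, and the composition of whole windows was not analysed here, so its part in the CD44 value was not tested.

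**Figure D5:**
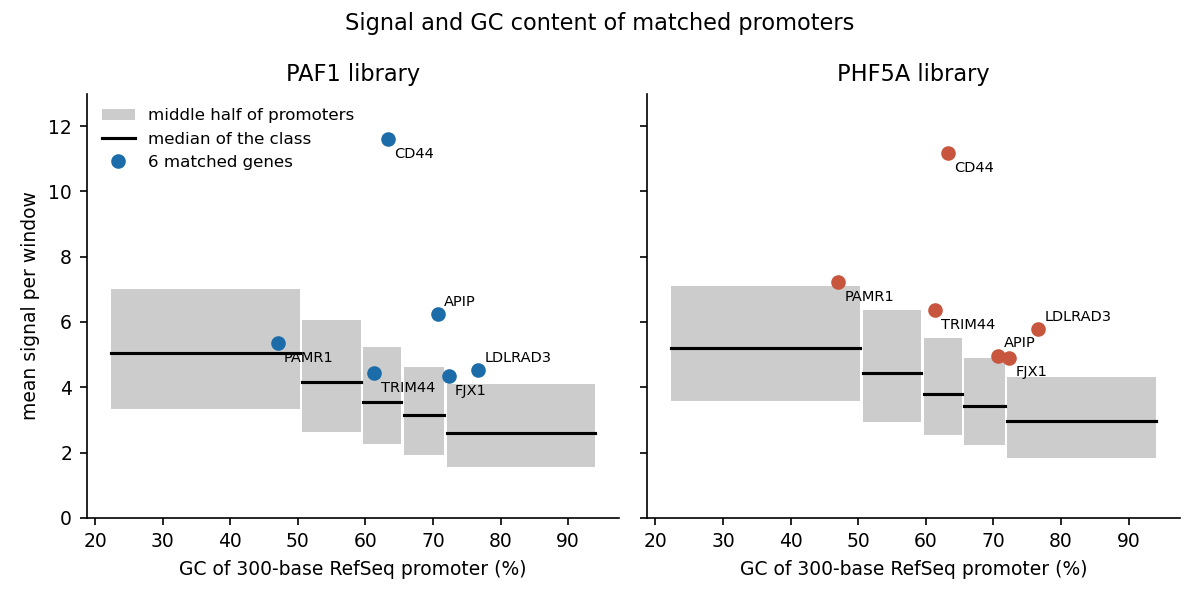
Mean signal per window (vertical axes) by GC content of the RefSeq promoter stretch in percent (horizontal axes), PAF1 left and PHF5A right. Points are the 6 matched genes, grey boxes span the middle 50% of promoters in each of 5 GC classes and black lines are medians. CD44 at 63.3% lies above the box of its class in both libraries, while the medians fall to 2.61 and 2.96 in the highest class.

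Genes that act with CD44, or in the case of LYVE1 share its ligand, were read from lists chosen by function. Of the 34 genes in 5 such lists, all measured, 4 reached 2 times the median promoter with PAF1, against 8.18% of all windows, and 4 with PHF5A, against 6.77%. Above the median promoter lay 11 of the 34 with PAF1, against 49.9% of all windows, and 17 with PHF5A, against 49.5%. The median signals of the 34 were 3.0 and 4.13, against 4.11 and 4.30 for all windows. Windows with RefSeq protein-coding symbols had medians of 3.64 and 3.91. Against these the 34 genes were lower with PAF1 and higher with PHF5A. Among the 4 proteases that shed CD44, MMP14 was highest at 13.2 ± 1.78 and 12.0 ± 1.70, and ADAM10 lowest at 0.880 ± 0.474 and 2.84 ± 0.853. MMP14 was the only one of them at or above CD44, and MMP9 had 10.6 ± 1.59 and 10.1 ± 1.56. A list of 7 held co-receptors, partners and LYVE1, another hyaluronan receptor, whose gene is also on chromosome 11. LYVE1 was highest at 13.8 ± 1.88 and 12.7 ± 1.80, and the Wnt co-receptor gene LRP6 lowest at 1.72 ± 0.643 and 2.34 ± 0.753. In this list the receptor tyrosine kinase gene ERBB2 had 9.44 ± 1.51 and 11.9 ± 1.70.

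None of the 10 genes for CD44 ligands and the enzymes that make or cut hyaluronan reached 2 times the median promoter in either library. Of all windows 8.18% did so with PAF1 and 6.77% with PHF5A, and at such shares a list of 10 genes or fewer can easily hold none. The hyaluronan synthase gene HAS1 was their highest at 7.47 ± 1.38 and 8.64 ± 1.49, and the hyaluronidase family gene HYAL3 their lowest at 1.5 ± 0.60 and 1.11 ± 0.520. None of the 6 linkers to the cytoskeleton reached it either, from moesin (MSN, 6.27 ± 1.23 and 5.19 ± 1.12) down to merlin (NF2, 2.05 ± 0.703 and 2.23 ± 0.735). The same held for the 7 splicing regulators, with TRA2B highest at 6.82 ± 1.32 and 7.16 ± 1.35 and ESRP1, an epithelial regulator of CD44 exon choice, lowest at 1.88 ± 0.692 and 3.01 ± 0.879. A separate list held 7 ETS genes, EHF and ELF5 with their relatives, of which EHF was highest, ELF5 next, and ELF4 lowest at 0.610 ± 0.383 and 0.330 ± 0.285. Both ELF4 values lie below the 0.721 and 0.725 that a listed 0 allows in a window of 18 bins, and are no more exact than 0.

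The protein-coding genes of chromosome 11 outside 34 to 37 Mb with the most similar pair of values, by distance on the log2 scale over these 2 libraries, were CCDC15, KDM4E, POLD4, MS4A18 and RAB30. CCDC15 was nearest, at 11.4 ± 1.70 and 10.5 ± 1.64, and RAB30 the least near of the 5, at 11.2 ± 1.64 and 11.9 ± 1.70. Their excess over the regional level ran from 1.42 (RAB30) to 2.57 times (CCDC15) with PAF1 and from 1.47 (RAB30) to 2.34 times (POLD4) with PHF5A. CD44, at 1.98 and 1.73 times, lay inside both ranges.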

How the data were processed

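ChIP-seq signal of SW1990 cells was analysed in 1 PAF1 and 1 PHF5A library. The deposited values are the mean signal per promoter window, per the file headers, while how they were normalized is not stated by any source at hand. Bowtie2 2.2.3, Trim Galore, deepTools, Picard, bedtools and hg38 are listed without order or settings, per the submitters' processing notes.

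PAF1 values equal means of whole numbers over 150 bp bins, cut to 2 decimals, for 100% of windows within 0.0051, as do PHF5A values once divided by 1.00608. Bin sums over all windows were 4810548 with PAF1 and 4891421 with PHF5A. A fragment can enter several bins, so these are not reads. Counting errors used a dispersion of 4.33, from the split of bin sums between the libraries over 51588 non-overlapping windows, which also holds true antibody differences. A listed 0 was read as up to 3 counts times that dispersion. Errors and floors cover counting with this dispersion, and no spread between replicates.

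Folds used signal plus 0.5. Protein-coding status came from RefSeq (GRCh38.p14) by symbol, which listed 54.8% of windows. The members and lists were chosen with earlier results of these data known. Named genes are all members, windows that overlap a member's window or lie within 50 kb of CD44, the 5 highest windows of the region, the 5 genes most like CD44 on chromosome 11, and the highest and lowest of each list. MMP9, ERBB2, RP1-68D18.4 and RAG2 were named after their values were seen, as were RP1-68D18.2 and MIR1343, the nearest window on each side of CD44 that does not overlap it. The motifs and printed stretches were chosen with the values known. The calculations were tested on simulated data. Software was Python 3.11.15 with matplotlib 3.10.9, SciPy 1.17.1, numpy 2.4.6 and pandas 2.3.3.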

Additional observations from a re-analysis of the deposited data

How the results depend on the processing

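In all, 47 alternative values were computed for 9 results, and 45 of them moved by less than the 95% counting interval or, for counts of genes, by no more than 1.5 times. The alternatives reuse the same signals, so the interval serves only as a yardstick of size, and staying within it is not a test. The ranges below are the more direct description. CD44 over its regional level ran from 1.86 to 2.39 times with PAF1 and from 1.65 to 2.11 times with PHF5A, crossing 2 times in both, over other numbers of windows, fixed distances, the 9 neighbours as the region, other pseudocounts and windows at 0 left out. The highest of these, 2.39 and 2.11, came from 50 protein-coding windows per side, an alternative chosen after seeing the data. CD44 over the reference promoter ran from 2.25 to 2.99 times and from 2.09 to 2.71 times, with the highest values against promoters in the same GC class, also chosen after seeing the data. The neighbours' median ran from 1.12 to 1.46 times with PAF1 and from 1.13 to 1.43 times with PHF5A. The log2 difference of the libraries at CD44 ran from 0.053 to 0.11. With a threshold of 1.5 times in place of 2, the number of the 10 genes past it was 2 with PAF1 and 4 with PHF5A, where 21.9% and 20.4% of all windows pass. Against the median of protein-coding symbols the PHF5A count at 2 times was 3. No paired analysis was possible because each antibody has 1 library. For the same reason no replicate could be left out, and no value holds the spread between replicate libraries.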

Other observations

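Within the CD44 gene, 2 further windows 1435 bp apart stood far from each other in the PAF1 library. RP1-68D18.4, whose gene lies within the long noncoding RNA that RefSeq calls CD44-AS1, had 2.35 ± 0.774 with PAF1, the lowest PAF1 signal of the 51 windows at 34 to 37 Mb, and 6.27 ± 1.27 with PHF5A. RP1-68D18.2 had 7.77 ± 1.37 and 7.37 ± 1.34. The log2 difference of RP1-68D18.4, PAF1 minus PHF5A, was -1.19 ± 0.48. It was chosen after its values were seen, and with RAG2, a gene of antigen receptor recombination at 2.58 ± 0.812 and 6.09 ± 1.25, it was 1 of 2 windows of the 51 that differed by more than 2 counting standard errors, 3.92% against 4.81% of all windows.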
